A study of Mus musculus with 35 samples.

Results

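The genes of DNA replication and S phase were followed here in cytotoxic T lymphocytes (CTLs) that had been cultured at neutral or acidic pH, with or without interleukin-2 (IL-2). The 51 members were taken from a list of gene symbols, and all 51 were found among the 48709 genes of the deposited tables. All 51 also passed the filter on low counts, which left 13819 genes for testing.

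DNA replication starts at origins. The origin recognition complex, Cdc6 and Cdt1 load the MCM2-7 helicase onto DNA during G1, and the kinases Cdc7 and Cdk2, together with Mcm10, Cdc45 and the GINS complex, convert it into an active helicase at the start of S phase. Replication protein A then coats single-stranded DNA, the polymerase alpha-primase complex makes primers, the RFC clamp loader places PCNA on the template, and polymerases delta and epsilon extend the strands, while Fen1 and Lig1 join the lagging strand. Many of these genes are transcribed at the G1 to S transition under E2F transcription factors. In CD8+ T cells IL-2 is a growth factor that drives this transition.

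The cells were mouse OT-I CTLs, which carry a transgenic T-cell receptor for an ovalbumin peptide and had been activated and then expanded in IL-2. RNA was sequenced at the start of the experiment (0 h) and after 24 h in medium of pH 7.4, pH 7 or pH 6.6 that contained either no IL-2 or 200 IU/mL of it. Each of these 7 groups held 5 biological replicates, so there were 35 libraries, and dead cells had been removed on Ficoll before RNA extraction. All groups share the same culture history, so the cells without IL-2 had IL-2 withdrawn and were never naive to it, and the 0 h group had not been in acidified medium.

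The libraries held from 16721319 to 34033340 counts on genes (median 24730020). Levels are given as CPM, the reads of a gene scaled to the size of its library by the TMM method, and fold changes are on the log2 scale from edgeR's quasi-likelihood test with Benjamini-Hochberg adjustment over all 13819 genes. A gene is said to have risen or fallen where its adjusted p was under 0.05. The libraries had the defining markers of CD8+ T cells, with Cd8a between 674 and 1596 CPM, whereas the B cell markers Ms4a1 and Pax5 were at 0 in all 35. The labels and the study's text do not say that a replicate number marks the same culture in every group. The fit holds a term for replicate number, so its p-values rest on a match of same-numbered libraries that these sources do not state.

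The promoters of several members carry the letters that E2F factors are known to bind. The letters TTTCGCGC or TTTGGCGC, on either strand, were searched in the windows of RefSeq (GRCm38.p6) that run from 250 bases before to 50 bases after each transcription start. Of the 51 members 43 had such a window, and 12 of these (27.9%) held the letters, against 1.86% of the 9977 tested genes with a window and 0.929% of all genes in the table. The 12 were Mcm3, Mcm5, Mcm6, Mcm7, Orc1, Cdt1, Rfc3, Pola1, Pole2, Lig1, Uhrf1 and E2f2. In Mcm3, Mcm7, Cdt1, Pole2, Lig1 and E2f2 the only match lay after the start, from 10 bases in Pole2 to 39 in E2f2. A gene was counted where any of its windows matched, and Mcm7, Lig1, Uhrf1 and E2f2 also had windows without a match. A match is a description of the letters only. Stretches before the start are shown for 4 of the 12. They are also shown for Tyms and Pold3, which had no match and which stood at opposite ends of the acid response described below. Each is written 5′ to 3′ on the gene's strand with the matched letters in capitals, and matches on opposite strands overlap in Mcm5 and at the first site of Mcm6. The Uhrf1 stretch lies before the later of its starts, inside the annotated gene, which begins at base 56303321. The Orc1 and Pold3 stretches lie before the RefSeq start but run into the annotated genes. These begin at base 108579423 for Orc1 and, on the minus strand, at base 100121565 for Pold3. The marked letters of Orc1 lie inside its annotated gene.

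Mcm6 (chr1:128359725-128359835, minus strand): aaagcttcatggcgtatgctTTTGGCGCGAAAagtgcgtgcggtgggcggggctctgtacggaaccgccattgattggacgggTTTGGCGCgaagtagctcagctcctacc
Mcm5 (chr8:75109336-75109387, plus strand): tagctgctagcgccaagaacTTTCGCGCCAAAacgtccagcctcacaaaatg
Orc1 (chr4:108579407-108579453, plus strand): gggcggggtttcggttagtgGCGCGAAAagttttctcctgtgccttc
Uhrf1 (chr17:56304108-56304155, plus strand): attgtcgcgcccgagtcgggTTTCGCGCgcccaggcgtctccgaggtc
Tyms (chr5:30073626-30073725, minus strand): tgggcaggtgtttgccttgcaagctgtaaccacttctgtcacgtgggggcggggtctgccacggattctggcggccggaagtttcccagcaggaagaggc
Pold3 (chr7:100121503-100121602, minus strand): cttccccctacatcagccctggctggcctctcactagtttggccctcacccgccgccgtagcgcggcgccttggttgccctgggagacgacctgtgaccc

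The first question was what pH 6.6 does to these genes while IL-2 is present. All 51 members fell at pH 6.6 against pH 7.4 with IL-2, and in all 51 the level was lower in 5 of 5 same-numbered pairs. The share of all genes tested that was lower in all 5 pairs was not counted. Over all genes tested 40.9% fell in this comparison, so a fall by itself was common, but the median log2 fold change was -2.05 over the members and -0.07 over all genes tested. The mean level left at pH 6.6 was a median of 24.1% of that at pH 7.4, from 8.71% for Orc1 to 88.4% for Pold3. In 27 members it was under 25%, and in 6 it was over 50%. In 50 of 51 members every library at pH 6.6 lay below every library at pH 7.4, which held for 33.1% of all genes tested. Fewer cells in S phase and less RNA of these genes in each cell cannot be told apart in bulk RNA.

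Other markers moved with this comparison. The summed level of 6 myeloid markers was 5.39 to 11.3 CPM at pH 7.4 with IL-2 and 16.6 to 31.5 CPM at pH 6.6 with IL-2, nearly all of it Cd68, which is also a general lysosomal protein, while Csf1r was at 0 in all libraries of both groups and Lyz2 did not exceed 0.0800 CPM. Gzmb, the gene of the cytotoxic protease granzyme B, fell from 6696 to 9010 CPM at pH 7.4 to between 482 and 1215 CPM at pH 6.6. Prf1 lay at 163.9 to 561.9 CPM at pH 7.4 and 43.5 to 155.5 CPM at pH 6.6, both with IL-2. Cd3e lay at 374 to 435 CPM and 532 to 616 CPM. The ranges of the other CD8+ T cell markers, Cd3d, Cd3g, Cd8a and Cd8b1, overlapped between these groups. Cd8a, for example, lay at 824 to 1231 CPM and 834 to 1247 CPM. The summed level of 3 NK cell markers was 43.4 to 46.8 CPM at pH 7.4 with IL-2 and 20.15 to 34.2 CPM at pH 6.6 with IL-2, nearly all of it Klrb1c, while Ncr1 did not exceed 0.0694 CPM. Reads outside genes made up 3.91% to 5.18% of the reads at pH 7.4 with IL-2 and 7.33% to 8.83% at pH 6.6 with IL-2. The part of these shifts in the result was not tested.

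**Figure D1:**
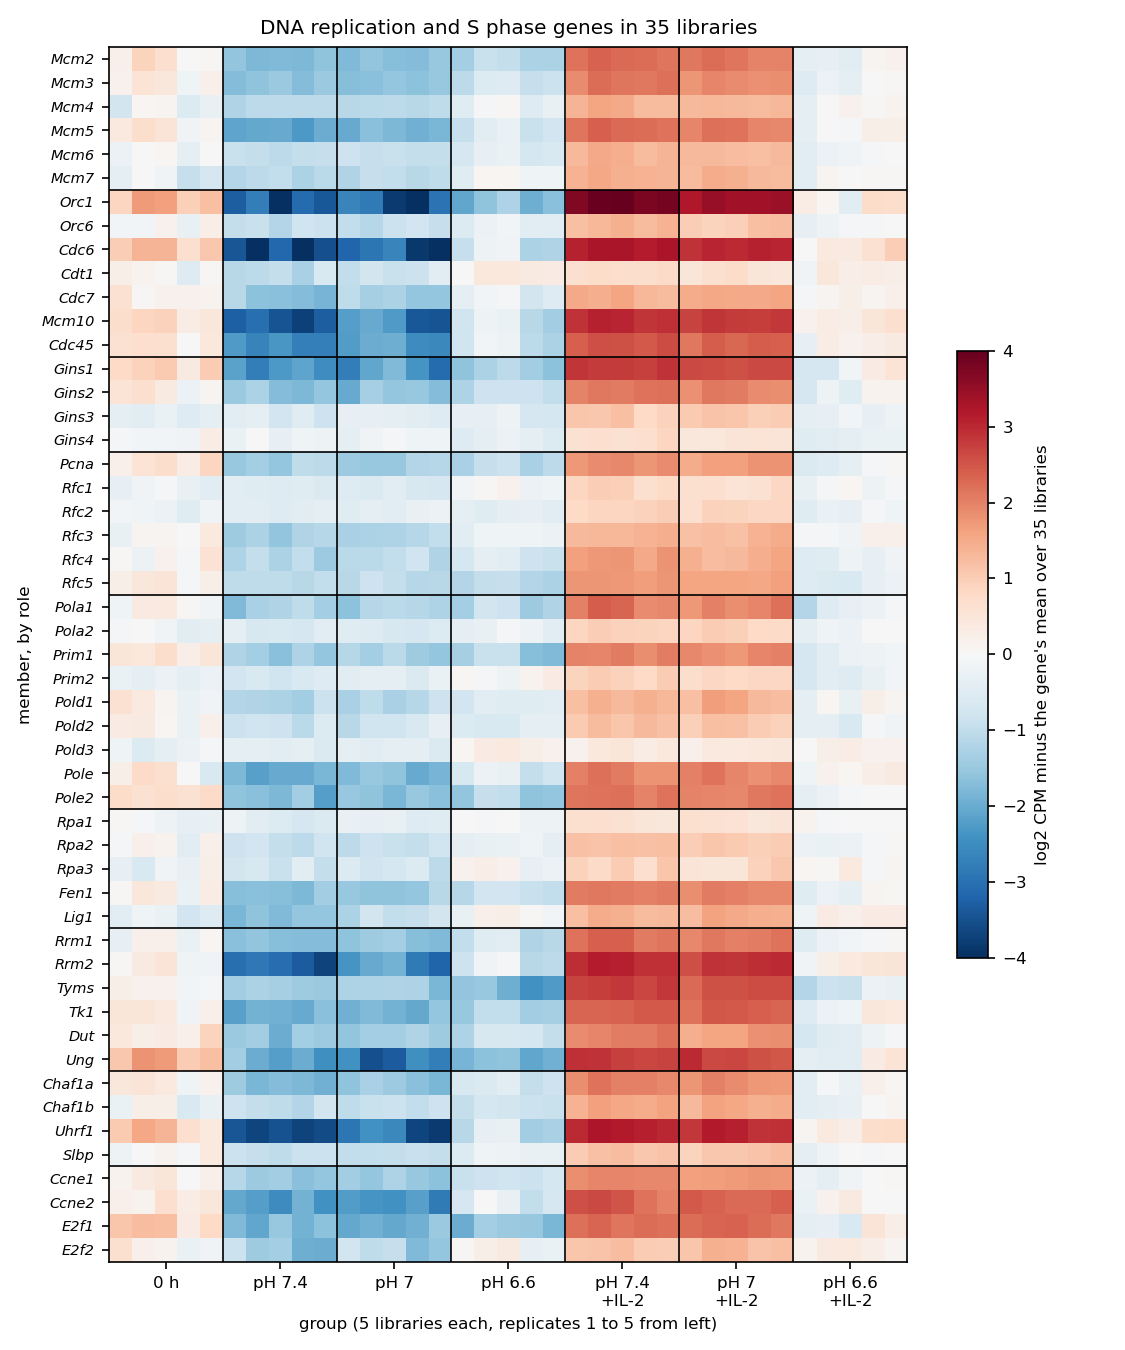
Level of each of the 51 members in each of the 35 libraries, as log2 CPM minus the gene's own mean over all libraries. Columns are libraries in 7 groups of 5, rows are genes by role, and colours are capped at 4 units. The blocks at pH 7.4 and pH 7 with IL-2 are high, and those at pH 7.4 and pH 7 without IL-2 are low. By group mean both pH 6.6 blocks lie between them in most members, but not in Gins3, Gins4, Rfc2, Rfc5 or Tyms.

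The MCM2-7 helicase fell as a whole, with all 6 subunits between 19.2% (Mcm2) and 37.8% (Mcm4) of their pH 7.4 level. Mcm2 stood at 357, 411, 380.2, 379 and 352 CPM in replicates 1 to 5 at pH 7.4 with IL-2. At pH 6.6 with IL-2 it stood at 60.4, 64.0, 58.8, 86.9 and 89.7 CPM, so the highest acid library was under the lowest neutral one by a wide gap (log2 fold change -2.38, SE 0.13). Mcm4 had the smallest fall of the 6, from 482, 563, 535, 448 and 444 CPM to 144, 184, 208, 192 and 206 CPM (-1.41, SE 0.10). Mcm5 and Mcm6, whose promoters carry the E2F letters 2 and 3 times, had log2 fold changes of -2.22 and -1.56.

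The genes that select, license and fire origins held both the steepest and one of the shallowest falls. Orc1, the subunit of the origin recognition complex whose transcript is known to follow the cell cycle, had the largest fall of all members. It was at 41.0, 49.1, 50.98, 43.6 and 44.7 CPM at pH 7.4 with IL-2 and at 3.87, 3.32, 2.39, 5.26 and 5.12 CPM at pH 6.6 with IL-2. All 5 acid libraries lay far under the neutral ones (ratio of means 11.5, log2 fold change -3.52, SE 0.18). Cdt1, the partner of Cdc6 in loading MCM2-7, moved far less, from 97.4, 104, 100.2, 102 and 106 CPM to 56.0, 85.0, 74.3, 76.2 and 75.0 CPM (-0.48, SE 0.11, adjusted p = 1.43e-04). Its groups did not overlap, and 71.9% of its level remained. Of the other 5 genes in this class, Cdc6 (-2.69), Mcm10 (-2.57) and Cdc45 (-2.34) lay nearer Orc1, while Orc6 (-1.44) and the kinase gene Cdc7 (-1.32) fell less.

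Within GINS, the complex that joins Cdc45 and MCM2-7 in the active helicase, the 4 subunits differed. Gins1 was at 35.2, 33.3, 33.9, 32.4 and 35.8 CPM at pH 7.4 with IL-2 and at 3.06, 3.04, 4.53, 6.13 and 7.12 CPM at pH 6.6 (-2.84, SE 0.17). Gins4 went only from 53.4, 55.1, 53.0, 55.6 and 62.6 CPM to 24.96, 25.2, 27.3, 28.99 and 28.6 CPM (-1.05, SE 0.08). Neither pair of groups overlapped, and the subunits of this 1 complex kept between 14.01% and 48.3% of their neutral level. Gins2 also fell (-2.30). A gene on the opposite strand covers 67.3% of the exon bases of Gins2, and the strand setting used in counting is not given in the sources used here.

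The sliding clamp and its loader showed a similar spread. Pcna, the clamp that tethers polymerases, fell by 2.12 on the log2 scale. Of the 5 loader subunits Rfc5 fell most, from 139.8, 142, 139, 131 and 139.8 CPM to 29.2, 28.1, 26.9, 33.1 and 35.5 CPM (-2.17, SE 0.08). Rfc1, the large subunit, fell least, from 192, 212, 208, 169 and 184 CPM to 87.8, 101, 112, 93.4 and 103 CPM (-0.96, SE 0.07). Both sets of libraries were fully separated by pH.

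Among the polymerases and primase the fall ran from steep to barely detectable. Pola1, the catalytic subunit of polymerase alpha, went from 166, 220.3, 206, 149.9 and 155 CPM to 18.1, 28.4, 32.3, 34.9 and 38.6 CPM (-2.57, SE 0.13). Its partner Pola2 had a log2 fold change of -1.05. Pold3, an accessory subunit of polymerase delta, was at 111, 134, 137, 121 and 132 CPM at pH 7.4 with IL-2 and at 99.0, 116, 123, 113 and 112 CPM at pH 6.6. Pold3 was the 1 member whose groups overlapped. Its log2 fold change was -0.18 (SE 0.08, adjusted p = 0.0427), and the call was lost under 10 of 12 other ways of processing, with adjusted p from 0.0458 to 0.653. Among the members, other subunits of polymerases delta and epsilon fell more, with -1.36 for Pold1, -1.80 for Pole and -2.27 for Pole2.

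The proteins that bind and join single strands were the class with the smallest median fall (-1.13). Rpa1, the large subunit of replication protein A, went from 452, 452, 441, 398 and 391 CPM to 317, 276, 289.6, 286 and 292 CPM and so kept 68.5% of its level (-0.54, SE 0.06). Fen1, the flap endonuclease, was the exception, with 177, 183, 179, 171 and 176 CPM at pH 7.4 and 30.04, 35.9, 32.9, 45.6 and 44.0 CPM at pH 6.6 (-2.24, SE 0.11). For Fen1, however, 84.2% of exon bases lie under a gene on the opposite strand.

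The class of nucleotide supply, which as listed also holds Ung, had the lowest remaining levels, with a median of 17.2% over the class. All 6 of its members kept between 9.5% and 19.6% of their neutral level. Tyms, thymidylate synthase, dropped from 116, 122, 127, 116 and 129 CPM to 7.97, 9.96, 9.77, 15.4 and 14.7 CPM (-3.39, SE 0.15), the largest fall after Orc1. Tk1, thymidine kinase, had the smallest fall of the class, from 145, 146, 148, 158 and 158 CPM to 20.3, 24.8, 25.4, 39.5 and 37.9 CPM (-2.36, SE 0.13). In both genes replicates 4 and 5 were the highest of the acid libraries. The ribonucleotide reductase genes Rrm1 and Rrm2 had log2 fold changes of -2.40 and -2.68, Dut one of -2.39, and Ung, which removes uracil from DNA, one of -2.77.

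Uhrf1, which recruits maintenance DNA methylation to newly replicated DNA, fell most among the genes of chromatin assembly and histone mRNA. It went from 284, 341, 328, 315 and 291 CPM to 38.6, 47.6, 43.3, 58.3 and 59.8 CPM (-2.63, SE 0.18). Slbp, which binds the stem-loop of histone mRNA, fell least, from 202, 224, 238, 214 and 218 CPM to 77.5, 91.8, 101, 94.8 and 101 CPM (-1.24, SE 0.07). The subunits of chromatin assembly factor 1 lay between them, with -2.06 for Chaf1a, of which 52.5% of exon bases lie under a gene on the opposite strand, and -1.72 for Chaf1b.

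The regulators of the G1 to S step fell as well. Ccne2, a cyclin partner of Cdk2, went from 65.1, 68.2, 62.6, 49.0 and 43.2 CPM to 9.13, 12.3, 14.01, 10.8 and 11.1 CPM (-2.32, SE 0.14), and Ccne1 had a log2 fold change of -2.05. E2f1 fell by 2.27 on the log2 scale. E2f2 fell less, from 65.3, 66.2, 70.5, 60.8 and 59.2 CPM to 33.2, 39.1, 39.3, 36.1 and 32.3 CPM (-0.84, SE 0.12).

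The 12 members with the E2F letters had a median log2 fold change of -1.89 (range -3.52 to -0.48), and the 31 with a window but no match had a median of -2.06 (range -3.39 to -0.18). The ranges overlapped almost completely, with Orc1 and Cdt1 at either end of the first and Tyms and Pold3 at either end of the second.

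**Figure D2:**
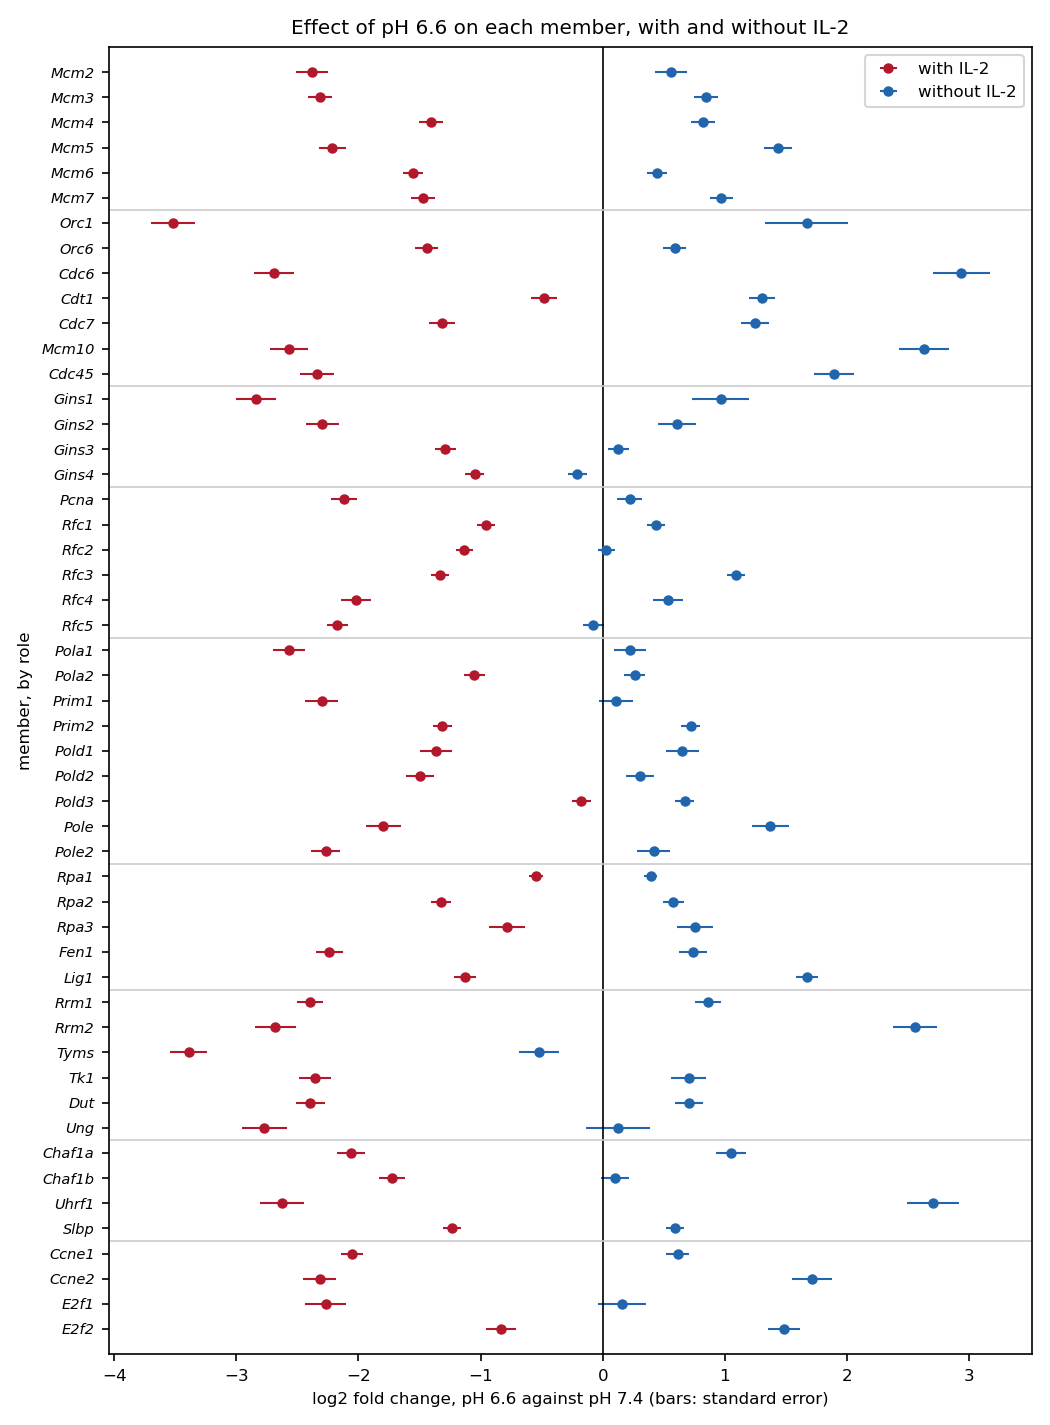
Log2 fold change of each member at pH 6.6 against pH 7.4, with IL-2 (red) and without IL-2 (blue), with bars for the standard error of the fit (5 libraries per group). The red points run from -3.52 to -0.18 and all lie left of zero, while 40 of the blue points were called higher and 2 lower.

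The libraries at pH 6.6 with IL-2 varied more among themselves than those at pH 7.4. The mean log2 CPM over the members was 5.20 ± 0.20 (SD, n = 5) at pH 6.6 and 7.07 ± 0.06 at pH 7.4. Replicates 4 and 5 were among the 2 highest acid libraries in 36 and 47 of the 51 members, and replicate 1 was the lowest in 38. The median log2 difference over the members, taken within each same-numbered pair, ran from -2.26 to -1.79, so each of the 5 pairs showed a fall of similar size.

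At pH 7 with IL-2 few of the genes passed the test. By the test 4 of 51 members fell against pH 7.4 and none rose, beside 9.83% of all genes tested that fell and 9.15% that rose. The 4 were Orc1 (-0.48, SE 0.15), Dut (-0.36, SE 0.11), Mcm3 (-0.26, SE 0.09) and Orc6 (-0.26, SE 0.09). Orc1 was at 28.97, 35.4, 32.7, 32.9 and 34.6 CPM at pH 7 with IL-2, below all 5 libraries at pH 7.4. The median of the members was -0.13, with a highest value of 0.17 for E2f2. Within same-numbered pairs the median over the members was negative in all 5, from -0.15 to -0.06. In all 5 pairs 22 members were lower and 1 was higher. The share of all genes tested that did so was not counted, so these 2 counts cannot be called particular to the members. In 8 members every library at pH 7 lay below every library at pH 7.4, beside 8.63% of all genes tested. The 4 calls were not stable: none was left when replicate 2 was left out, 1 was left without replicate 1 and 1 without replicate 3, and none without the replicate block. From pH 7 to pH 6.6 with IL-2 all 51 members fell (median -1.83, beside 40% of all genes tested that fell), so most of the fall lay in the lower step of pH.

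Without IL-2 the direction was different. At pH 6.6 against pH 7.4 without IL-2, 40 of the 51 members rose, 2 fell and 9 did not pass the test, beside 31.6% of all genes tested that rose and 35.4% that fell. The median of the members was 0.67, against -0.03 over all genes tested. In 37 members every library at pH 6.6 lay above every library at pH 7.4, which held for 22.4% of all genes tested. The summed level of the 6 myeloid markers was 10.6 to 19.7 CPM at pH 7.4 and 17.8 to 33.7 CPM at pH 6.6 in these groups, again mainly Cd68. The 3 NK cell markers summed to 21.8 to 42.2 CPM at pH 7.4 and 8.86 to 13.3 CPM at pH 6.6, again mainly Klrb1c, and reads outside genes made up 7.70% to 10.2% and 6.47% to 9.19%. The part of these shifts in this result was not tested.

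The largest rises without IL-2 were in Cdc6 (2.94), Uhrf1 (2.70), Mcm10 (2.63) and Rrm2 (2.56), which started from very low levels. Uhrf1 was at 3.36, 2.87, 3.26, 2.79 and 3.04 CPM at pH 7.4 without IL-2 and at 16.9, 28.8, 29.2, 13.8 and 14.7 CPM at pH 6.6 without IL-2, so it rose in every pair and by most in replicates 2 and 3. Those same replicates stood out generally, since replicates 2 and 3 were among the 2 highest libraries of the group in 41 and 45 of the 51 members. Cdt1 rose from 28.9, 30, 32.3, 25.3 and 40.6 CPM to 63.1, 83.6, 82.4, 79.4 and 77.9 CPM (1.30, SE 0.11). Mcm2 rose less, from 26.9, 23.2, 23.2, 23.2 and 26.02 CPM to 31.01, 42.9, 41.4, 33.2 and 33.4 CPM (0.56, SE 0.13). All 6 MCM2-7 subunits and all 7 origin genes rose.

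Tyms went the other way and fell, from 6.95, 7.54, 7.16, 6.72 and 6.46 CPM at pH 7.4 to 6.10, 6.27, 4.63, 3.40 and 3.71 CPM at pH 6.6 without IL-2 (-0.52, SE 0.16, adjusted p = 0.00551). All 5 acid libraries lay below all 5 neutral ones. Gins4 also fell, by 0.21 on the log2 scale (adjusted p = 0.0179), but this call was lost with RLE scaling, and 1 of these 2 calls was lost without replicate 1 and without replicate 2. The 9 members that did not pass the test were Gins3, Pcna, Rfc2, Rfc5, Pola1, Prim1, Ung, Chaf1b and E2f1, with log2 fold changes from -0.08 for Rfc5 to 0.22 for Pola1 and Pcna. At pH 7 without IL-2 only Lig1 (0.72, SE 0.09) and Rrm2 (0.76, SE 0.18) rose and no member fell, beside 1.36% of all genes tested that rose and 0.318% that fell. Only 1 of these calls was left without replicate 2 and 1 without replicate 3, where the genes that rose over all genes tested went from 188 to 32 and 74.

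The presence of IL-2 changed what pH 6.6 did to these genes. In the interaction contrast, the log2 effect of pH 6.6 with IL-2 minus that without IL-2, all 51 members were lower, beside 32.8% of all genes tested. The median was -2.56, from -5.63 for Cdc6 to -0.84 for Gins4, against 0.04 over all genes tested. Uhrf1 (-5.33) and Rrm2 (-5.24) followed Cdc6, while Pold3 (-0.85) and Rpa1 (-0.93) lay near Gins4.

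**Figure D3:**
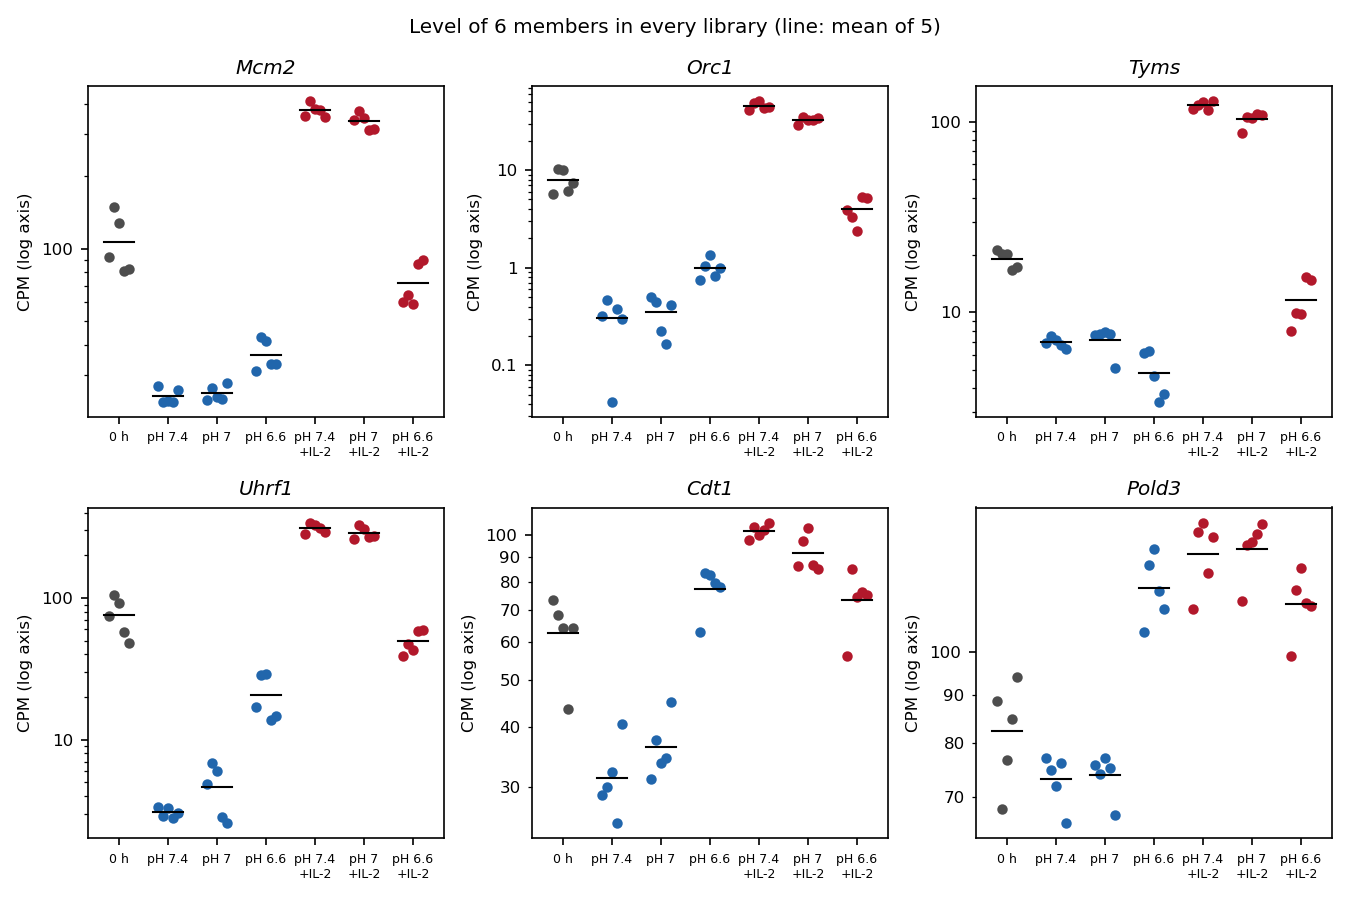
CPM (log axis) of Mcm2, Orc1, Tyms, Uhrf1, Cdt1 and Pold3 in each library of the 7 groups, with a line at the mean of 5. In all 6 genes the libraries at pH 7.4 with IL-2 lie above those at pH 7.4 without IL-2, and with IL-2 the gap from pH 7.4 to pH 6.6 is widest for Orc1 and Tyms among these 6.

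The same groups also show how strongly IL-2 acted at each pH. At pH 7.4 all 51 members were higher with IL-2 than without, beside 39.3% of all genes tested. In all 51 every library with IL-2 lay above every library without it, which held for 32.8% of all genes tested. The ratio of mean levels had a median of 8.71, from 1.74 for Pold3 to 152 for Orc1. Orc1 was at 0.323, 0.471, 0.0423, 0.376 and 0.2996 CPM at pH 7.4 without IL-2, and its lowest library held 1 read, so its ratio is imprecise (log2 fold change 7.20, SE 0.25). Cdc6 (6.82), Uhrf1 (6.67), Mcm10 (6.30) and Rrm2 (6.18) came next, and the MCM2-7 subunits lay between 2.33 and 4.32.

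At pH 7 the response to IL-2 was of similar size, with all 51 members higher and a median log2 fold change of 3.03, beside 37.6% of all genes tested that were higher. At pH 6.6 it was much smaller. There 33 members were higher with IL-2, 1 was lower and 17 did not pass the test, beside 13.2% of all genes tested that were higher and 10.6% that were lower. The ratio of means had a median of 1.47, from 0.73 for Prim2, the large primase subunit, to 4.02 for Orc1. The size of this response differed between replicates. Within same-numbered pairs the median log2 difference over the members was 0.413, 0.239 and 0.253 in pairs 1 to 3. It was 0.859 in pair 4 and 0.875 in pair 5.

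The members that still responded to IL-2 at pH 6.6 were led by Orc1 (2.01, SE 0.23), Ung (1.81) and E2f1 (1.56). Orc1 was at 0.757, 1.05, 1.36, 0.818 and 0.986 CPM at pH 6.6 without IL-2, all below the 5 libraries at pH 6.6 with IL-2. Tyms showed the same order, with a log2 fold change of 1.26 (SE 0.16). Prim2 was lower with IL-2 (-0.45, SE 0.08), at 24.1, 28.9, 26.8, 31.04 and 35.9 CPM against 40.6, 36.1, 33.6, 42.6 and 48.0 CPM, values looked up after this call was seen. Among those that did not pass the test were Cdt1 (-0.08, 95% interval -0.29 to 0.13), Pold3 (-0.05, -0.21 to 0.10) and Gins4 (0.03, -0.12 to 0.19).

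**Figure D4:**
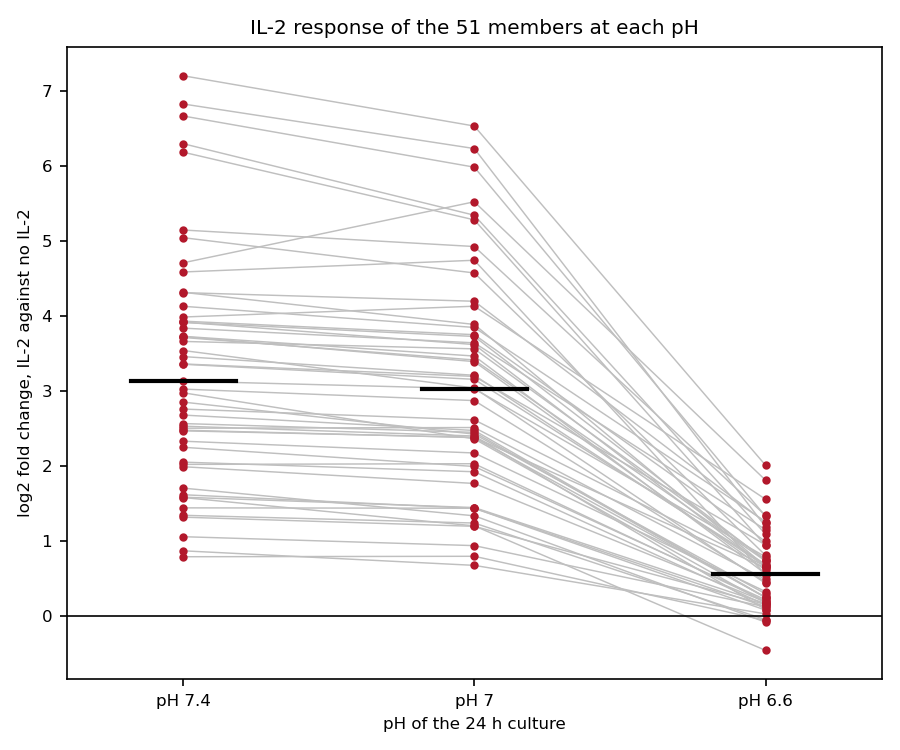
Log2 fold change with IL-2 against without IL-2 for each of the 51 members at pH 7.4, pH 7 and pH 6.6, with grey lines joining 1 gene and black lines at the median. The medians were 3.13 at pH 7.4, 3.03 at pH 7 and 0.57 at pH 6.6.

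Acid with IL-2 did not bring the genes down to the level seen on IL-2 withdrawal. At pH 6.6 with IL-2, 50 members were higher than at pH 7.4 without IL-2, with a median log2 fold change of 1.23, beside 30.4% of all genes tested that were higher and 34.1% that were lower. In 45 members every library at pH 6.6 with IL-2 lay above every library at pH 7.4 without IL-2, which held for 20.4% of all genes tested. Cdc6 (4.13), Uhrf1 (4.04) and Mcm10 (3.73) stood highest. Gins4 was the 1 member called lower (-0.18, adjusted p = 0.0463), and that call was lost under most alternatives, among them each of those without replicate 1, 2, 3 or 4, where 0 members were lower.

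The 0 h cells give the starting level. After 24 h at pH 7.4 with IL-2 all 51 members were above it, with a median log2 fold change of 1.57 and the largest rise in Rrm2 (2.88), beside 29% of all genes tested that rose. At pH 7.4 without IL-2, 49 fell below it and 2, Gins3 and Pold3, did not pass the test, with a median of -1.60 and the largest fall in Cdc6 (-4.71), beside 38.3% of all genes tested that fell. At 0 h the members' mean log2 CPM was 5.48 ± 0.18 (SD, n = 5), and replicate 4 was the lowest library of that group in 35 members.

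At pH 6.6 with IL-2 the genes ended near the starting level but not on it. Against 0 h 24 members fell, 6 rose and 21 did not pass the test (median -0.27). This median lay between -0.39 without replicate 4 and -0.14 without replicate 3, and within same-numbered pairs it was 0.18 in pair 4, -0.03 in pair 5 and -0.53 to -0.46 in pairs 1 to 3. These counts stood beside 38% of all genes tested that fell and 30.5% that rose. Those that rose were Mcm4, Mcm7, Pold3, Rpa1, Rpa3 and Lig1, the last by 0.62 on the log2 scale, and 3 were called without replicate 4. Ung (-1.39), E2f1 (-1.02) and Orc1 (-0.97) were the furthest below. At pH 6.6 without IL-2, 39 fell and 6 rose (median -0.81), beside 40.3% and 34.8% of all genes tested.

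The order of group means varied among the members. The commonest order, in 22 of 51, ran from pH 7.4 with IL-2 through pH 7 with IL-2, 0 h, pH 6.6 with IL-2, pH 6.6 without IL-2 and pH 7 without IL-2 to pH 7.4 without IL-2. The highest mean was at pH 7.4 with IL-2 in 43 members and at pH 7 with IL-2 in 8, and these neighbours differed by the test in only 4 members. The lowest mean was at pH 7.4 without IL-2 in 37, at pH 7 without IL-2 in 11 and at pH 6.6 without IL-2 in 3. Per kilobase of exon, Rrm2 (232.5 CPM per kb), Pcna (199.2) and Mcm6 (148.0) had the highest levels at pH 7.4 with IL-2, and Ung (5.61) had the lowest.

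A further 54 genes of replication and its control were read in the same way. At pH 6.6 against pH 7.4 with IL-2, 45 fell, 7 rose and 2, Orc5 and Top1, did not pass the test (median -1.27). The largest falls by class were in Recql4 (-2.53), the helicase gene of replication initiation, Dna2 (-2.85), a nuclease of flap processing, the histone chaperone gene Asf1b (-2.84), and E2f8 (-2.52), an atypical E2F that represses transcription. The 7 that rose, beside 35.4% of all genes tested that rose and 40.9% that fell, were Pold4 (1.58), Rbl2 (0.96), Rrm2b (0.85), Tfdp2 (0.71), Samhd1 (0.54), Rb1 (0.47) and Orc4 (0.46). The pocket proteins that restrain E2F did not move together, since Rb1 and Rbl2 rose and Rbl1 fell (-0.92, SE 0.11). Samhd1 hydrolyses deoxynucleotides, and Rrm2b encodes the reductase subunit used outside S phase. Pold4, the smallest subunit of polymerase delta, rose from 28.3 ± 5.41 CPM to 84.1 ± 9.34 CPM (SD, n = 5).

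Without IL-2 the same 54 genes gave 31 that rose and 8 that fell at pH 6.6, with a median of 0.42, beside 31.6% of all genes tested that rose and 35.4% that fell. The largest rises were in E2f7 (3.48), Clspn (2.85) and E2f8 (2.70), and the largest falls in Samhd1 (-1.38) and E2f6 (-1.02). Samhd1 thus rose at pH 6.6 with IL-2 and fell without it.

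Genes of mitosis, which peak after S phase, were set beside the replication genes. With IL-2, 23 of 24 fell at pH 6.6 (median -1.87), beside 40.9% of all genes tested, and Cenpa, the centromeric histone, rose (0.97). Without IL-2 all 24 rose, beside 31.6% of all genes tested, with a median of 2.18 and a range from 1.24 for Cenpf to 3.32 for Kif11, against a median of 0.67 for the replication genes. At pH 7 without IL-2, 21 of the 24 rose (median 0.92), beside 1.36% of all genes tested, where 2 of the 51 replication genes did. Over all genes tested the 188 that rose there became 32 without replicate 2 and 45 without the replicate block. How many of the 24 stayed called in those settings was not counted. With IL-2 at pH 6.6 against without, 1 of 24 was higher, 1 lower and 22 did not pass the test, beside 13.2% of all genes tested that were higher and 10.6% that were lower, where 33 of the 51 replication genes were higher. These counts are set side by side and the lists were not tested against each other. In the promoter windows the E2F letters occurred in 1 of 21 mitosis genes (4.76%) against 12 of 43 replication genes, while the letters TTTGAA, on either strand, of the cell cycle homology region occurred in 76.2% of the mitosis genes, 16.3% of the replication genes and 14.4% of the tested genes.

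**Figure D5:**
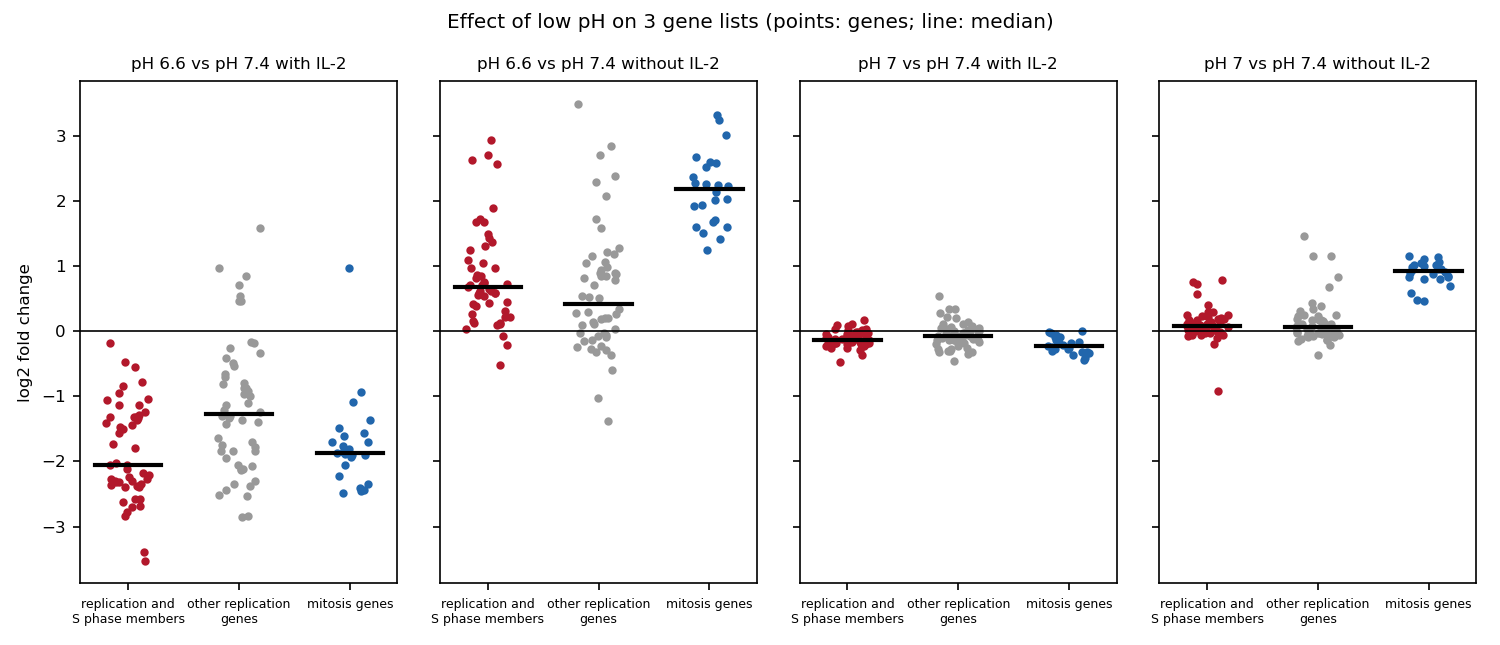
Log2 fold change of the 51 replication and S phase genes (red), 54 other replication genes (grey) and 24 mitosis genes (blue) in 4 comparisons of pH, with a line at each median. With IL-2 at pH 6.6 the medians were -2.05, -1.27 and -1.87, and without IL-2 they were 0.67, 0.42 and 2.18.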

How the data were processed

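RNA of 35 libraries (7 groups of 5) was prepared with a stranded polyadenylated RNA kit and sequenced as single reads. The authors deposited 1 table of raw counts per library, the number of reads on each of 48709 genes with no normalization. The submitters' processing notes name cutadapt 1.8, STAR 2.5.2b, HTSeq 0.6.1 and GRCm38. The strand setting of the counting is not given in the sources used here. Reads aligned to several places (32.8% to 48.3%, median 37.1%), outside genes (median 7.42%) or on several genes (0.922%) name no gene and were left out, so genes with near-identical copies can be undercounted. Symbols and coordinates came from GENCODE M21, which matched 48349 genes.

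In R 4.3.3, edgeR 4.0.16 kept 13819 genes (filterByExpr, minimum count 10, over 7 groups), scaled them by TMM and fitted 1 robust quasi-likelihood model to all libraries, with terms for group and replicate number. The threshold was a Benjamini-Hochberg adjusted p of 0.05, and the common biological coefficient of variation was 0.12. The study's paired tests were the reason for the block. Same-numbered libraries at pH 6.6 and pH 7.4 with IL-2 deviated from their group means together in 5 of 5 pairs (r from 0.198 to 0.416, against a median of -0.0743 for different numbers). Among 70 pairs within groups none agreed within sampling noise (lowest chi-square per degree of freedom 6.24).

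The members and lists were chosen with earlier results of these data known. Every member is accounted for by count, and levels in every library are given for the members with the largest and smallest fall of each of 9 role classes at pH 6.6 with IL-2. Other values by library, and genes that are named for the size of a change in another comparison, were picked after their values were seen. Alternatives were RLE and upper quartile scaling, DESeq2 1.42.0, a looser and a stricter filter, only the groups compared, no replicate block, an added absolute log2 fold change of 1, and leaving out each replicate. Promoter letters were searched in the RefSeq windows (GRCm38.p6), and Gins4, Pole, Gins1, Gins2, Rfc2, Ccne2, Prim2 and Mcm4 had no entry.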

Additional observations from a re-analysis of the deposited data

Results flagged for a closer look

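In 8 of 126 tests of the 18 members with values by library, 1 library stood apart from the other 4 of its group by Dixon's criterion, which chance meets in about 1 of 20 groups. These were Mcm4 at pH 7.4 without IL-2 in replicate 1 (81.2 CPM, low), Cdt1 at pH 6.6 without IL-2 in replicate 1 (63.1 CPM, low), and Gins4 in replicate 5 at 0 h (42.9 CPM, high) and at pH 7.4 with IL-2 (62.6 CPM, high). Fen1 was high in replicate 5 at pH 7.4 (16.2 CPM) and at pH 7 (19.6 CPM) without IL-2. Tyms was low in replicate 5 at pH 7 without IL-2 (5.13 CPM) and in replicate 1 at pH 7 with IL-2 (87.5 CPM). All 8 lay in replicate 1 or 5.

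The effect of pH 6.6 differed between cells with and without IL-2 in each of these 18 members by the interaction contrast of the edgeR fit. Each was lower in it, as were all 51 members, beside 32.8% of all genes tested. The 18 were picked by their fold change at pH 6.6 with IL-2, which is part of this contrast. The log2 difference between both effects was -5.33 for Uhrf1, -5.19 for Orc1, -4.03 for Ccne2, -3.80 for Gins1, -3.06 for Tk1, -2.98 for Fen1, -2.94 for Mcm2, -2.87 for Tyms and -2.79 for Pola1. It was -2.32 for E2f2, -2.23 for Mcm4, -2.10 for Rfc5, -1.82 for Slbp, -1.79 for Cdt1, -1.39 for Rfc1, -0.93 for Rpa1, -0.85 for Pold3 and -0.84 for Gins4. In 14 of them the gene fell at pH 6.6 with IL-2 and rose without. Tyms and Gins4 fell in both, and Rfc5 and Pola1 did not pass the test without IL-2. Over all genes tested 40.9% fell with IL-2 and 31.6% rose without. The share of all genes that did both was not counted.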

How the results depend on the processing

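No called member turned sign under RLE scaling, upper quartile scaling or DESeq2 in the 14 comparisons, and over all alternatives 486 of 532 counts and medians stayed close to their value. Upper quartile scaling moved the median of all genes tested, for example from -0.04 to -0.27 for IL-2 at pH 7.4, where the split of all calls went from 5433 higher and 5678 lower to 4426 and 6786. With it the members' median was 2.91 for IL-2 at pH 7.4, 2.85 at pH 7, 1.42 for pH 7.4 with IL-2 against 0 h and -0.086 for pH 7 against pH 7.4 with IL-2, where 2 members were lower. The stricter filter gave 2.92 for IL-2 at pH 7. The cause of these shifts was not tested beyond the scaling and filter themselves.

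Where few members passed, counts depended on the setting. At pH 7 with IL-2 the 4 lower members became 1 with the looser filter, 12 with only the groups compared (with 1 higher) and 0 with an added log2 fold change of 1. At pH 7 without IL-2 the 2 higher members became 1 with the looser filter, 7 with only the groups compared (with 1 lower) and 0 with the added fold change, and DESeq2 called 1 lower. At pH 6.6 without IL-2 the 2 lower members became 1 with RLE scaling. The 1 lower member at pH 6.6 with IL-2 against pH 7.4 without IL-2 became 0 with RLE scaling, DESeq2, the looser filter and only the groups compared.

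The added fold change left 15 higher and 0 lower members at pH 6.6 without IL-2, 10 higher and 0 lower for IL-2 at pH 6.6, and 32 higher and 0 lower for pH 6.6 with IL-2 against pH 7.4 without. Against 0 h it left 0 higher and 2 lower at pH 6.6 with IL-2, and 0 higher and 21 lower without IL-2.

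Without the replicate block, 0 members were lower at pH 7 with IL-2, 1 was higher at pH 7 without IL-2 (45 of all genes tested, against 188 with the block), and 0 were lower for pH 6.6 with IL-2 against pH 7.4 without. The count at pH 6.6 with IL-2 was 51 with and without the pairing, and no other count moved past 1.5 times.

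Leaving out each replicate in turn gave 0 to 4 lower members at pH 7 with IL-2, 1 to 3 higher at pH 7 without IL-2 and 1 to 2 lower at pH 6.6 without IL-2. It gave 0 to 1 lower for pH 6.6 with IL-2 against pH 7.4 without, 3 to 7 higher for pH 6.6 with IL-2 against 0 h, a median of 2.94 to 3.04 for IL-2 at pH 7, and a median of -0.39 to -0.14 for pH 6.6 with IL-2 against 0 h.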
